A study of Homo sapiens with 6 samples.

Results

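The genes described here are 59 genes of DNA replication and of the passage from G1 into S phase, taken by symbol from the deposited table of raw counts. All 59 symbols had a row among the 15379 in the table, and all 59 passed the filter on low counts, which left 12056 genes to test. They fall into 8 groups by role: replication licensing (9 genes), origin firing (8), replicative polymerases and primase (8), the sliding clamp with its loaders and flap processing (8), single-strand binding and fork control (5), nucleotide synthesis (4), histone supply and chromatin copying (6), and the cyclins, E2Fs and pocket proteins of the G1/S step (11). The RNA came from HaCaT cells, a spontaneously immortalised line of human keratinocytes, sequenced as poly(A) libraries. In one group the cells were held at 41C for 1 h daily over 3 days (3 libraries), and in the other at 37C on the same schedule (3 libraries). No other treatment or genetic change is given for either group, and all libraries come from this 1 cell line. Whether replicates came from separate cultures is not stated in the labels, and the p-values therefore reflect the spread among these 6 samples alone, which may be technical. The interval from the last exposure to RNA isolation is likewise unstated.

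In G1, origins of replication are licensed when the origin recognition complex, CDC6 and CDT1 load the MCM helicase onto DNA. The kinases CDC7 and CDK2 then help CDC45 and the GINS complex to join the helicase, and polymerases, clamp and ligase copy both strands while ribonucleotide reductase and thymidylate synthase supply the precursors. Many of these genes are transcribed by E2F factors, which the retinoblastoma protein holds inactive until cyclin D and cyclin E kinases phosphorylate it. In the epidermis, proliferation belongs to the basal keratinocyte layer, and HaCaT cells keep cycling in culture.

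The promoters are shown because an E2F site is the sequence feature best known to be shared by these genes. The RefSeq promoter table (build GRCh38.p14) matched 49 of the 59 genes, and the 250 bases before the first listed start were searched on both strands for an E2F-type word, for a CCAAT box and for a cell cycle homology word. The E2F-type words were TTCCCGC as the first, then TTCGCGC as well as TTGCCGC, and finally TTGGCGC; the cell cycle homology words were TTTGAA in one form and TTCGAA in the other. An E2F-type word was present in 27 of the 49 promoters (55.1%), against 1745 of 9811 promoters of all genes tested that matched (17.8%). A CCAAT box was present in 51.0% of the member promoters and 35.4% of those of all genes tested, and a cell cycle homology word in 4.08% and 9.65%. Among 16 matched promoters of the mitosis genes used for comparison below, 12.5% held an E2F-type word, 8 of the 16 a cell cycle homology word, and 81.2% held a CCAAT box. The differences between these sets of promoters were not tested. A match is a description of letters and was not tested as a binding site. These 4 promoters belong to genes followed below, and E2F-type words are in capitals. They are MCM2 (chr3:127598161-127598410, plus strand), MCM3 (chr6:52284743-52284992, minus strand), E2F1 (chr20:33686386-33686635, minus strand) and RRM1 (chr11:4094435-4094684, plus strand), each written 5′ to 3′ and ending at the base before the start.
MCM2: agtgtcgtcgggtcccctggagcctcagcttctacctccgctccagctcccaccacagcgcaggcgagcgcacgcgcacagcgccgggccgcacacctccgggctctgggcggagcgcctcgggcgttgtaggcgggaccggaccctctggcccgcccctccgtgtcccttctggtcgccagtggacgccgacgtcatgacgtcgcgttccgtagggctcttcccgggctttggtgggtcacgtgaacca
MCM3: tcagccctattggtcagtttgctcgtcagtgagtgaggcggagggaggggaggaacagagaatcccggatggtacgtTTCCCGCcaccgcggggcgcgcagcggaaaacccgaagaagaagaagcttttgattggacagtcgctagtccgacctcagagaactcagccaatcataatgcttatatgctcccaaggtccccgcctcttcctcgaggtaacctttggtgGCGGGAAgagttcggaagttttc
E2F1: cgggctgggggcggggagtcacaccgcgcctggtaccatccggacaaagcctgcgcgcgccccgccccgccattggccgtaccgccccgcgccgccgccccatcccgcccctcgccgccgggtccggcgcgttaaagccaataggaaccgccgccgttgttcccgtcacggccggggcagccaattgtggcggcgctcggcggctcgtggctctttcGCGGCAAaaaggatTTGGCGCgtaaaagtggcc
RRM1: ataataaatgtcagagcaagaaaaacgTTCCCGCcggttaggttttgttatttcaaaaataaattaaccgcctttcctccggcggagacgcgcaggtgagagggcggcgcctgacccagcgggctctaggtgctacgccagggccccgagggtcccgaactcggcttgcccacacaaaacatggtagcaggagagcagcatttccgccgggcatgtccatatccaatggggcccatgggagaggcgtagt
The MCM3 promoter held 2 E2F-type words, the nearer one 16 bases before the start, and the E2F1 promoter held 2, the nearer one 12 bases before the start. The RRM1 promoter held 1, at 216 bases before the start, and none of these words lay in the MCM2 window. By GENCODE positions MCM2 starts at 127598223, MCM3 at 52284881 and E2F1 at 33686404, each inside its window. Most of the MCM2 and MCM3 windows thus lies within the gene by that annotation, as do the nearer words of MCM3 and E2F1. Bases further upstream were not searched, so whether an E2F-type word lies there in MCM2 was not tested.

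Library totals ran from 20139202 to 20856144 counts at 41C and from 19659112 to 19745664 counts at 37C. The keratinocyte genes KRT5 and KRT14, which encode the keratin pair of the basal layer, had 3280 to 3447 and 1608 to 1673 CPM (counts per 1e+06 counts) at 41C, against 2755 to 3133 and 1336 to 1516 CPM at 37C, so the defining markers of the line were abundant in every library. Of the 10 keratinocyte markers 3 rose at 41C (KRT14, ITGB4 and KRT6A), against 0.821% of all genes tested, and 0 fell. The log2 changes of the 10 ran from -0.28 (KRT15, 611 to 695 CPM at 41C and 702 to 906 CPM at 37C, edgeR adjusted p = 0.303) to 0.25 (ITGB4), with 7 positive and 3 negative. Of 6 melanocyte markers 3 had rows, with a summed level of 1.71 to 2.96 CPM at 41C and 1.96 to 2.68 CPM at 37C. The 6 fibroblast markers summed to 15.9 to 18.004 CPM at 41C and 13.9 to 16.7 CPM at 37C, and the 6 immune and endothelial markers to 16.8 to 19.8 CPM at 41C and 17.4 to 22.6 CPM at 37C. Most of the fibroblast sum came from COL3A1, with 12.6 to 14.9 CPM at 41C and 10.1 to 13.1 CPM at 37C, and most of the other sum from CD68, with 13.4 to 16.9 CPM at 41C and 13.8 to 17.6 CPM at 37C. The fibroblast receptor PDGFRB had 0, 0 and 0 counts at 41C and 1, 2 and 2 counts at 37C, and the leukocyte gene PTPRC had 0, 0 and 2 counts at 41C and 0, 1 and 0 counts at 37C. The part of other cell types in the results was not tested.

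None of the 59 genes passed the threshold of an edgeR adjusted p under 0.05, in either direction. The share among all genes tested was 1.09% (131 genes, 99 of them higher at 41C; with upper-quartile scaling 110, 57 of them higher), so a count of 0 in 59 is near the background and is no result about these genes. At an unadjusted edgeR p under 0.05 the count was 6 of the 59 genes (10.2%, against 13.7% of all genes tested), of which 5 were higher at 41C (8.47%, against 7.58% of all genes tested) and 1 lower (1.69%, against 6.12%). The 5 were CCND1, MCM2, MCM3, MCM5 and DNMT1, and the 1 was RRM1. The 3 libraries at 41C lay all above the 3 at 37C for 9 of the 59 genes (15.3%, against 11.2% of all genes tested) and all below them for 3 (5.08%, against 8.84%), in all 20.3% against 20% of all genes tested. DESeq2 called 1 of the 59 genes, CCND1, and limma-voom called 0. In bulk RNA a smaller share of cells in S phase and less RNA per cell cannot be told apart.

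The differences were small as well as short of the threshold. The median log2 change of the 59 genes was 0.01, against 0.0023 for all genes tested, with a lowest value of -0.13 (E2F8) and a highest of 0.21 (CCNE1). Of the values 33 were positive and 26 negative, and with upper-quartile scaling 28 were positive and the median was -0.0055. The median size of the log2 change, without its sign, was 0.05 among the 59 genes and 0.08 among all genes tested, beside median standard errors of 0.06 and 0.08. The 95% interval of the change lay wholly within 1.2-fold either way for 49 of the 59 genes (83.1%), against 51.7% of all genes tested, and within 1.5-fold for all 59. The 10 genes whose interval reached past 1.2-fold were POLA1, RFC1, CDC7, CCNE1, CCNE2, E2F2, E2F7, E2F8, RB1 and RBL1. A share of this kind follows a gene's depth, and the 59 genes were among the better counted, with a median log2 CPM of 6.30 against 5.08 for all genes tested.

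**Figure D1:**
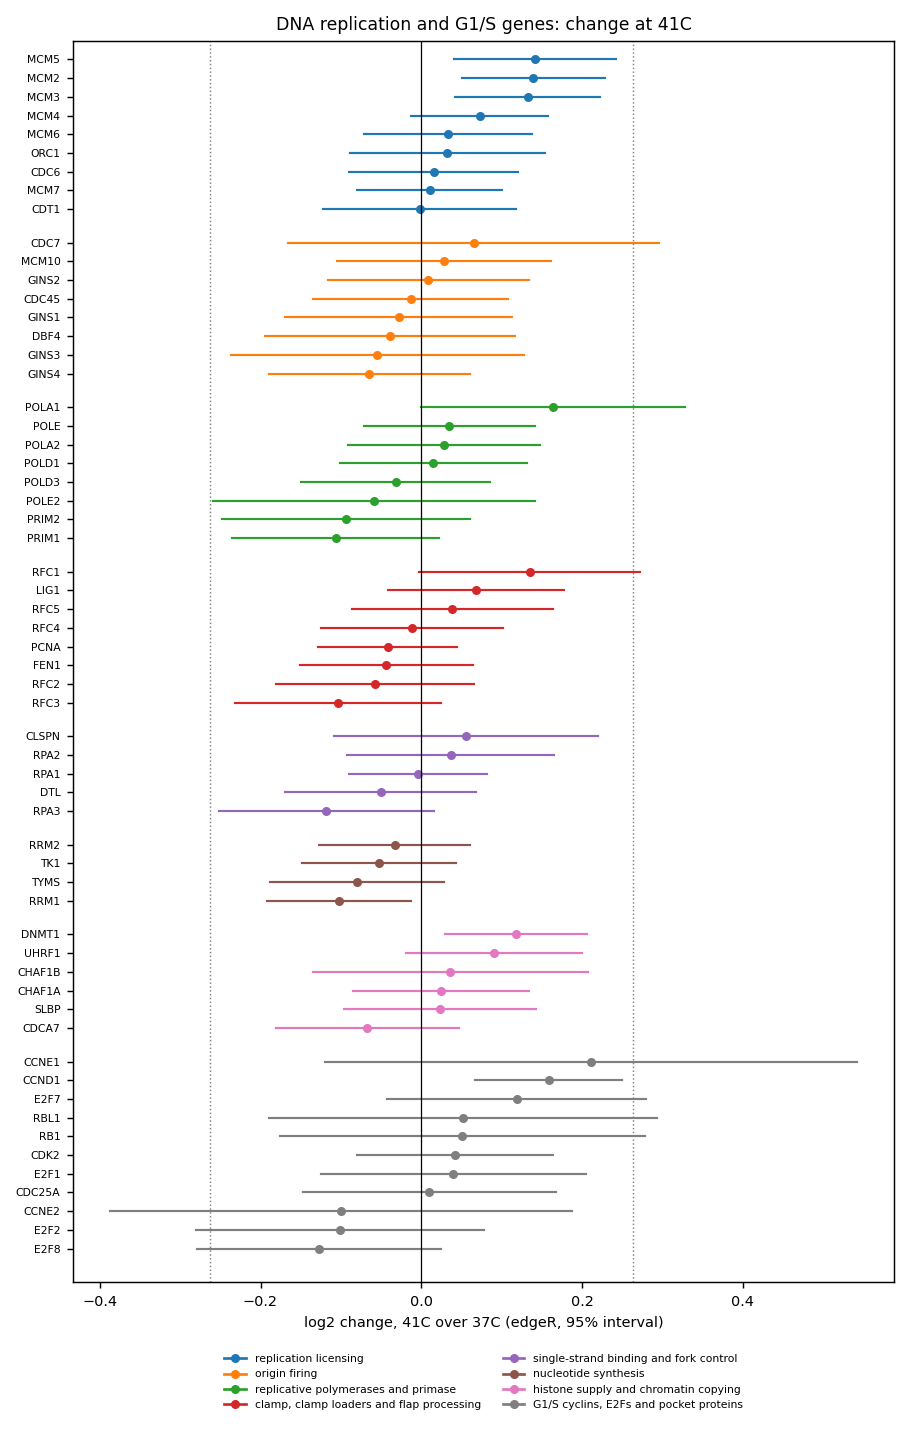
Log2 change at 41C over 37C (horizontal axis, edgeR) for each of the 59 genes, with its 95% interval as a line, coloured by role; dotted lines mark 1.2-fold either way. The points lie between -0.13 and 0.21, and the intervals of 49 of the 59 genes stay between the dotted lines.

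Among the 9 licensing genes, the MCM2, MCM3 and MCM5 subunits of the helicase had slightly more transcript at 41C, and the loading factors ORC1, CDC6 and CDT1 differed little. MCM2 had 453.7, 454.4 and 464.0 CPM at 41C and 403.5, 410.2 and 431.9 CPM at 37C (log2 change 0.14 ± 0.04 SE, 95% interval 0.05 to 0.23, edgeR adjusted p = 0.128). The groups did not overlap, 37C replicate 3 was the nearest to the 41C libraries, and without it MCM2, MCM3 and MCM5 passed (edgeR adjusted p = 0.0071, 0.0108 and 0.0273). Leaving that library out raised the calls over all genes from 131 to 805, so the passing is not particular to these genes. MCM3 had 316, 317 and 322 CPM at 41C and 286, 283 and 303 CPM at 37C (log2 change 0.13 ± 0.04, edgeR adjusted p = 0.165). MCM5 had 186, 183 and 197 CPM at 41C and 165, 173 and 176 CPM at 37C (log2 change 0.14 ± 0.05, edgeR adjusted p = 0.185). Both genes showed the same separation of the groups, about 1.1-fold in size. MCM4 also lay higher in every 41C library, at 523.6, 526.8 and 524.8 CPM at 41C against 491.0, 491.7 and 515.4 CPM at 37C, with a log2 change of 0.07 ± 0.04. MCM7, the helicase subunit with the most transcript per length, had 508.4, 509.8 and 517.5 CPM at 41C and 500.8, 491.3 and 532.6 CPM at 37C, and MCM6 had 159 to 175 CPM at 41C and 158 to 167 CPM at 37C. Both overlapped between the groups, so the 6 subunits of 1 complex did not all separate by temperature; whether the subunits differ from each other in their change was not tested. CDC6, which loads the helicase with CDT1, had 170.0, 163.3 and 169.0 CPM at 41C and 172.0, 155.3 and 169.7 CPM at 37C (log2 change 0.02 ± 0.05). CDT1 had 68.1, 68.9 and 72.1 CPM at 41C and 68.3, 67.7 and 73.3 CPM at 37C (log2 change -0.0022 ± 0.06), and ORC1, the largest subunit of the origin recognition complex, had 58.7 to 60.8 CPM at 41C and 56.1 to 60.4 CPM at 37C. For these loading factors the libraries of both temperatures interleave.

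**Figure D2:**
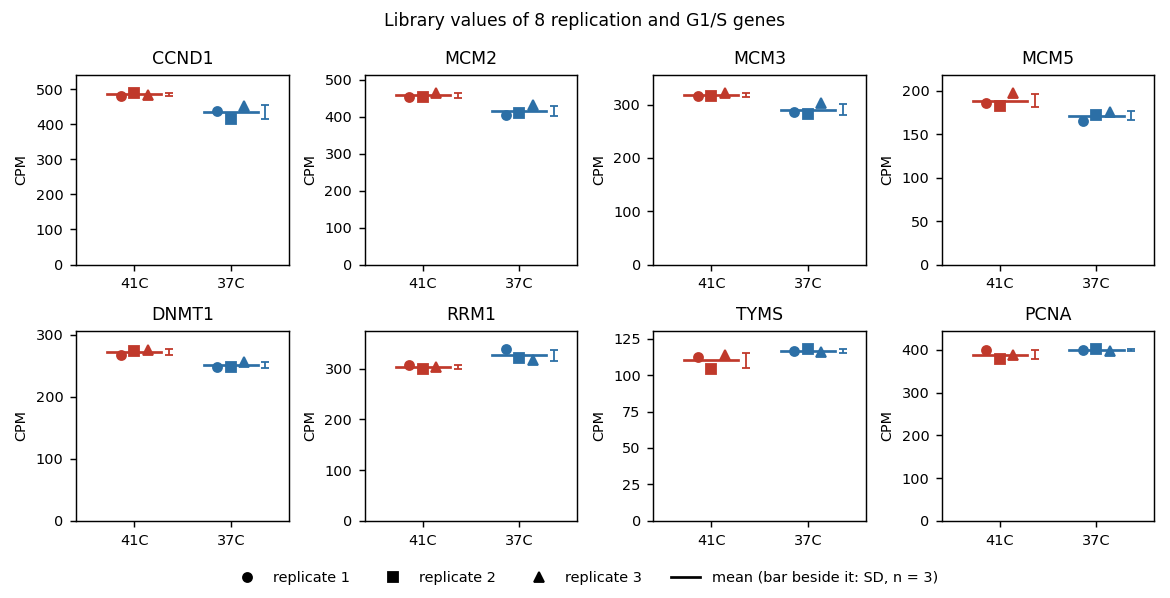
CPM in each library for 8 genes, 41C at left and 37C at right in each panel, with marker shapes for replicates, a line for the mean and a bar for the SD (n = 3); axes start at 0. The libraries of the groups are apart for CCND1, MCM2, MCM3, MCM5, DNMT1, RRM1 and TYMS and overlap for PCNA, and each gap is a small part of the level. The panels hold the 6 genes with an unadjusted edgeR p under 0.05, with TYMS and PCNA, so they do not show how often groups were apart. Of all 59 genes 20.3% were apart.

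Of the 8 genes that turn a licensed origin into a running fork, 3 had positive and 5 negative log2 changes, with a median of -0.02. CDC45, a helicase cofactor, had 82.3, 87.3 and 92.1 CPM at 41C and 84.3, 90.5 and 89.2 CPM at 37C (log2 change -0.01 ± 0.06, edgeR adjusted p = 0.953). MCM10, which helps the helicase to start unwinding, had 74.2, 67.5 and 66.9 CPM at 41C and 72.4, 67.8 and 64.2 CPM at 37C (log2 change 0.03 ± 0.06). In both, the spread among libraries of 1 temperature was wider than the gap between the means. The GINS complex has 4 subunits, and GINS4 lay lower in each 41C library, at 46.6, 46.3 and 47.9 CPM at 41C against 49.9, 48.2 and 49.1 CPM at 37C (log2 change -0.06 ± 0.06, edgeR adjusted p = 0.692). GINS3 had 24.5, 25.04 and 27.7 CPM at 41C and 24.5, 29.5 and 26.1 CPM at 37C. GINS1 and GINS2 overlapped between the groups too, with log2 changes of -0.03 and 0.01. CDC7, the origin-firing kinase, and DBF4, its activating subunit, had log2 changes of 0.07 ± 0.11 and -0.04 ± 0.07. CDC7 ranged from 20.4 to 24.2 CPM at 41C and from 17.7 to 24.2 CPM at 37C, where replicate 3 was the lowest. The sign of its change turned on single libraries: the log2 change of CDC7 was -0.0002 when 41C replicate 1 was left out, -0.05 when 37C replicate 3 was, and 0.16 when 37C replicate 1 was.

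The polymerase genes gave 4 positive and 4 negative log2 changes, and no gene of this group separated the temperatures in every library. POLA1, the catalytic subunit of polymerase alpha, which starts each new strand, had 52.7, 45.8 and 48.7 CPM at 41C and 46.0, 46.6 and 38.8 CPM at 37C (log2 change 0.16 ± 0.08, edgeR adjusted p = 0.368). PRIM1, the catalytic primase subunit that works in the same complex, had 57.1, 52.8 and 53.3 CPM at 41C and 61.2, 56.3 and 58.2 CPM at 37C (log2 change -0.11 ± 0.06, edgeR adjusted p = 0.464). These 2 partners lay on opposite sides of 0 and neither passed, and without 37C replicate 3, the lowest library for POLA1, its log2 change was 0.09. The other 2 subunits of that complex, POLA2 and PRIM2, had log2 changes of 0.03 ± 0.06 and -0.09 ± 0.07. POLE, the catalytic subunit of the leading-strand polymerase, had 113.5, 113.3 and 115.1 CPM at 41C and 109.9, 107.5 and 116.2 CPM at 37C (log2 change 0.03 ± 0.05), and POLE2, its second subunit, had 13.3 to 13.4 CPM at 41C and 13.2 to 14.8 CPM at 37C. POLD1 and POLD3, of the lagging-strand polymerase, had log2 changes of 0.01 ± 0.05 and -0.03 ± 0.06.

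PCNA, the sliding clamp, had the most transcript per length of all 59 genes, and its libraries overlapped between the groups: 399.7, 378.3 and 387.2 CPM at 41C and 399.2, 402.8 and 397.4 CPM at 37C (log2 change -0.04 ± 0.04, 95% interval -0.13 to 0.04, edgeR adjusted p = 0.718). RFC1, the large subunit of the clamp loader, lay higher in each 41C library, with 83.1, 82.2 and 82.5 CPM at 41C and 81.4, 76.9 and 67.3 CPM at 37C (log2 change 0.13 ± 0.06, edgeR adjusted p = 0.374). Most of that gap came from 37C replicate 3: without it the log2 change of RFC1 was 0.06. RFC3, a small subunit, had 71.5, 65.5 and 68.1 CPM at 41C and 77.5, 73.8 and 69.0 CPM at 37C (log2 change -0.10 ± 0.06, edgeR adjusted p = 0.473). RFC2, RFC4 and RFC5 had log2 changes of -0.06, -0.01 and 0.04, and their groups overlapped. FEN1, which trims flaps on the lagging strand, had a log2 change of -0.04 ± 0.05. LIG1, the ligase that then seals the strand, had 85.5, 86.0 and 89.7 CPM at 41C and 82.6, 82.6 and 84.0 CPM at 37C, a full separation (log2 change 0.07 ± 0.05, adjusted p in edgeR = 0.609).

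The single-strand binding protein RPA and the fork factors CLSPN and DTL did not separate the temperatures. RPA1, the large subunit, had 322, 319 and 318 CPM at 41C and 315, 319 and 328 CPM at 37C (log2 change -0.0042 ± 0.04). RPA3, the smallest subunit, had 58.7, 58.4 and 57.4 CPM at 41C and 57.7, 65.0 and 66.8 CPM at 37C (log2 change -0.12 ± 0.06, edgeR adjusted p = 0.426). RPA2 had a log2 change of 0.04 ± 0.06. For RPA3 the overlap is with 37C replicate 1 alone, which lay within the 41C range. CLSPN encodes claspin, an adaptor of the replication checkpoint, and had 44.3, 47.1 and 44.6 CPM at 41C and 49.6, 40.9 and 40.5 CPM at 37C (log2 change 0.06 ± 0.08). DTL, which targets CDT1 for destruction during S phase, had 78.3, 74.5 and 79.2 CPM at 41C and 84.5, 77.9 and 77.9 CPM at 37C (log2 change -0.05 ± 0.06).

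The 4 nucleotide synthesis genes were the one group with every log2 change negative, between -0.10 and -0.03. RRM1, the large subunit of ribonucleotide reductase, had 307.0, 300.0 and 303.7 CPM at 41C and 338.3, 321.5 and 317.5 CPM at 37C (log2 change -0.10 ± 0.04, 95% interval -0.19 to -0.01, edgeR adjusted p = 0.296). TYMS, thymidylate synthase, had 112, 104 and 114 CPM at 41C and 116, 118 and 116 CPM at 37C (log2 change -0.08 ± 0.05, edgeR adjusted p = 0.521). In both genes all 41C libraries were below all 37C libraries, by less than 1.1-fold in the means. RRM2, the small subunit that limits the reductase in S phase, had 207.8, 199.0 and 210.3 CPM at 41C and 209.0, 206.3 and 216.1 CPM at 37C (log2 change -0.03 ± 0.04), and TK1, the thymidine salvage kinase, had 239.1, 227.3 and 243.5 CPM at 41C and 237.0, 246.8 and 252.5 CPM at 37C (log2 change -0.05 ± 0.05). These 2 genes overlapped between the groups. In each of the 4 genes 41C replicate 2 was the lowest of the 6 libraries. With the gene length correction the median of the 4 was -0.04, against -0.07 without it. TYMS shares 39.1% of its annotated exon bases with ENOSF1 on the opposite strand (GENCODE 29), and the sources used here do not give the strand setting of the counting, so part of its reads may not be its own. ENOSF1 had 12.8 to 15.3 CPM at 41C and 14.2 to 15.2 CPM at 37C.

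Of the 6 genes that supply histones or copy chromatin marks, 5 had positive log2 changes. DNMT1, which copies DNA methylation behind the fork, had 267, 274 and 275 CPM at 41C and 248, 248 and 256 CPM at 37C (log2 change 0.12 ± 0.04, 95% interval 0.03 to 0.21, edgeR adjusted p = 0.207). UHRF1, which recruits DNMT1 to newly copied DNA, had 106.0, 100.2 and 99.9 CPM at 41C and 94.8, 98.9 and 93.9 CPM at 37C (log2 change 0.09 ± 0.05, edgeR adjusted p = 0.467). Both partners were higher in every 41C library and neither passed. Without 37C replicate 3 DNMT1 did (edgeR adjusted p = 0.0422), in a fit with 805 calls over all genes, against 131 with all 6 libraries. SLBP, which binds the stem-loop of histone messages, had 71.4, 71.4 and 73.3 CPM at 41C and 69.1, 68.5 and 75.1 CPM at 37C (log2 change 0.02 ± 0.06). The chromatin assembly subunits CHAF1A and CHAF1B had log2 changes of 0.02 ± 0.05 and 0.04 ± 0.08, and CDCA7 one of -0.07 ± 0.05.

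In the group that controls the G1/S step, CCND1 came nearest to the threshold of all 59 genes. CCND1 encodes cyclin D1, the growth factor-responsive cyclin, and had 481, 488 and 484 CPM at 41C and 437, 413 and 453 CPM at 37C (log2 change 0.16 ± 0.04, 95% interval 0.07 to 0.25, edgeR adjusted p = 0.0927). The 41C libraries lay close together and above all 37C libraries. It passed in 5 of 17 alternatives, among them DESeq2 (adjusted p = 0.0308), edgeR without the filter on low counts (adjusted p = 0.0489) and edgeR without 37C replicate 3 (adjusted p = 0.00281). Over all alternatives its adjusted p ran from 0.00281 to 0.509, the highest without 37C replicate 2. The 5 alternatives in which CCND1 passed called 247 to 805 genes over all, against 131 in the comparison above. LTO1 on the opposite strand shares 10.3% of the annotated exon bases of CCND1 and had 22.99 to 23.97 CPM at 41C and 23.5 to 25.6 CPM at 37C. The E cyclins, which drive CDK2 into S phase, were low: CCNE1 had 6.72, 6.36 and 7.10 CPM at 41C and 4.42, 6.53 and 6.48 CPM at 37C (log2 change 0.21 ± 0.16, 95% interval -0.12 to 0.54). Its value in 37C replicate 1 stood below the other 5 libraries, and without that library the log2 change of CCNE1 was 0.04. CCNE2 had 9.22, 8.88 and 8.51 CPM at 41C and 9.94, 11.1 and 7.496 CPM at 37C (log2 change -0.10 ± 0.14), and 37.0% of its exon bases are shared with INTS8 on the opposite strand. These 2 genes had the widest intervals and the lowest counts of the 59. Differences as small as those of their neighbours were not detectable in them, and the part of depth in this was not tested.

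CDK2, the kinase partner of cyclin E, and CDC25A, the phosphatase that activates it, had log2 changes of 0.04 ± 0.06 and 0.01 ± 0.07. CDC25A had 27.4, 25.4 and 28.1 CPM at 41C and 27.0, 26.3 and 27.1 CPM at 37C, a full overlap. The activator E2F1 had 41.6, 42.2 and 42.1 CPM at 41C and 42.3, 35.6 and 44.6 CPM at 37C (log2 change 0.04 ± 0.08), and E2F2, another activator, had a log2 change of -0.10 ± 0.08. E2F7 and E2F8 are repressors that shut E2F targets down late in S phase, and both are themselves E2F targets. E2F7 had 34.9, 35.1 and 32.7 CPM at 41C and 34.5, 30.1 and 30.1 CPM at 37C (log2 change 0.12 ± 0.08, edgeR adjusted p = 0.528), while E2F8 had 35.4, 35.0 and 39.3 CPM at 41C and 40.1, 41.9 and 37.8 CPM at 37C (log2 change -0.13 ± 0.07, edgeR adjusted p = 0.457). The repressor pair thus lay on opposite sides of 0 with groups that overlapped. RB1, the retinoblastoma gene, had 115, 106 and 113 CPM at 41C and 118, 115 and 89.5 CPM at 37C (log2 change 0.05 ± 0.10), and its relative RBL1 had 44.3, 41.2 and 43.0 CPM at 41C and 46.1, 44.6 and 33.3 CPM at 37C (log2 change 0.05 ± 0.11). In both pocket protein genes 37C replicate 3 was the lowest library, and without it the log2 changes were -0.06 for RB1 and -0.08 for RBL1.

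Levels of different genes can be compared only per length, and the deposited FPKM values (fragments per kilobase per 1e+06 counts) serve for that. By the mean over the 6 libraries the median member had 24.2 FPKM, against 8.05 FPKM for all genes tested, and 46 of the 59 genes were above that median. PCNA led with 275.8 ± 8.57 FPKM at 41C and 287.5 ± 3.02 FPKM at 37C (SD, n = 3 each). MCM7 followed with 172.9 ± 0.517 FPKM at 41C and 173.9 ± 6.66 FPKM at 37C, and TK1 with means of 152.4 FPKM at 41C and 160.1 FPKM at 37C. PCNA was apart from MCM7 by more than either spread. CCND1, at 114 ± 1.04 FPKM at 41C and 103 ± 4.51 FPKM at 37C, stood sixth and far above the E cyclins: CCNE1 had 3.42 ± 0.173 FPKM at 41C and 2.99 ± 0.605 FPKM at 37C, and CCNE2, the lowest of the 59, had 2.31 ± 0.107 FPKM at 41C and 2.50 ± 0.490 FPKM at 37C. CCNE1 and CCNE2 at 37C did not differ beyond their spread.

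Subunits of 1 complex had unequal transcript levels. The 6 MCM subunits ran from 43.8 FPKM (MCM6) to 172.9 FPKM (MCM7) at 41C and from 42.0 FPKM (MCM5) to 173.9 FPKM (MCM7) at 37C; MCM5 and MCM6 did not differ beyond their spread in either group. In the clamp loader, RFC4 had 57.9 ± 1.89 FPKM at 41C and 59.1 ± 1.93 FPKM at 37C, while RFC3 had 6.04 ± 0.285 FPKM at 41C and 6.57 ± 0.423 FPKM at 37C. The RFC3 value rests on the longest gene length of the 59, 11245 bases, and FPKM falls as the length assigned to a gene grows. In the polymerase alpha complex PRIM1 had 38.0 ± 1.80 FPKM at 41C and 41.4 ± 1.97 FPKM at 37C, against 5.26 ± 0.387 FPKM at 41C and 4.76 ± 0.491 FPKM at 37C for POLA1. RPA1 had 92.9 FPKM at 41C and 94.4 FPKM at 37C, above RPA2 (43.7 FPKM at 41C and 43.1 FPKM at 37C) and RPA3 (28.6 FPKM at 41C and 31.4 FPKM at 37C). The order of genes within each of these complexes was the same at both temperatures except that MCM2 and MCM4, and MCM5 and MCM6, changed places. MCM2 had 128.9 ± 0.781 FPKM at 41C and 118.6 ± 3.52 FPKM at 37C, and MCM4 128.4 ± 0.908 FPKM at 41C and 123.7 ± 2.79 FPKM at 37C. These neighbours lay within their spread of each other at 41C, while at 37C the gap was larger than either SD.

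**Figure D3:**
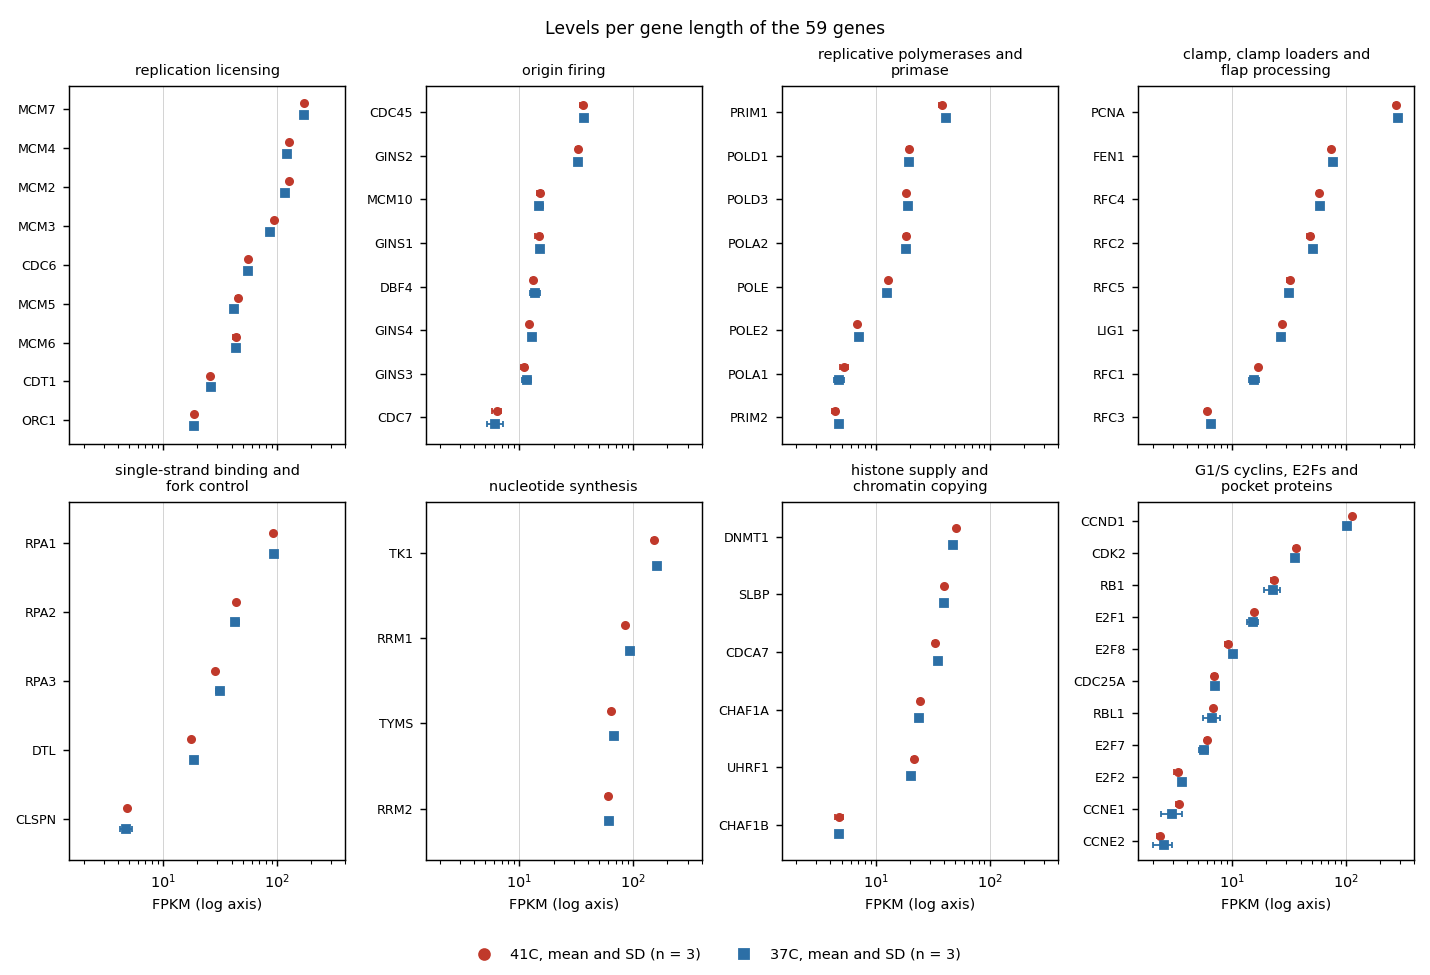
FPKM on a log axis for the 59 genes, 1 panel per role, with 41C as circles above 37C as squares and bars for the SD (n = 3). Levels span from 2.31 to 287.5 FPKM between genes, while the symbols of the temperatures nearly coincide for each gene.

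Summed over each role, the libraries moved within a few percent. The 9 licensing genes summed to 2461, 2443 and 2487 CPM at 41C and 2309, 2289 and 2421 CPM at 37C, a ratio of the means of 1.05, and the 11 genes of the G1/S step to 903, 893 and 910.1 CPM at 41C and 867, 826 and 840.2 CPM at 37C, a ratio of 1.07. The 4 nucleotide synthesis genes summed to 866, 831 and 872 CPM at 41C and 901, 892 and 902 CPM at 37C, a ratio of 0.953. In each of these 3 roles the groups did not overlap, and the few most abundant genes weigh most in a sum. The summed means of the G1/S step were 902.3 CPM at 41C and 844.4 CPM at 37C. Most of that gap came from CCND1 alone, with means of 484.7 CPM at 41C and 434.3 CPM at 37C. Histone supply and chromatin copying had a ratio of 1.04, also without overlap, with summed means of 673.5 CPM at 41C and 646.6 CPM at 37C. Most of this gap came from DNMT1, with means of 272.3 CPM at 41C and 250.8 CPM at 37C. Origin firing, the polymerases, the clamp group and the RPA group had ratios of 0.992, 1.00, 0.988 and 0.992 with overlapping libraries. The sums over all genes of the table did not overlap either, with a ratio of 1.01. They ran from 1001049 to 1014422 CPM at 41C and from 987105 to 1000099 CPM at 37C. Sums over members were given no test.

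**Figure D4:**
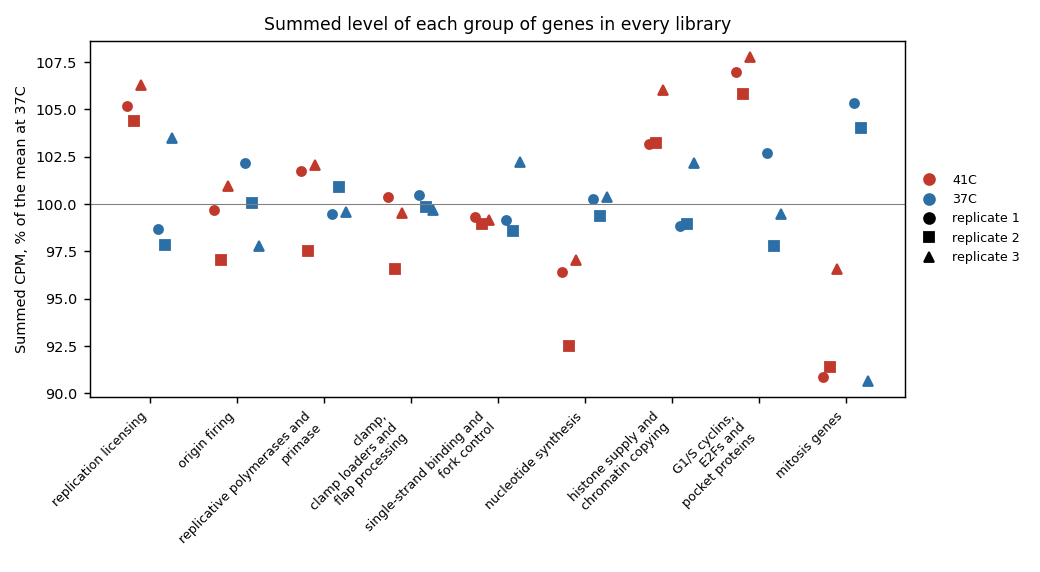
Summed CPM of each role in every library, as a percent of the mean at 37C (vertical axis, not starting at 0), with 41C at left of 37C and marker shapes for replicates; the last group is the 20 mitosis genes. Libraries of the replication groups lie between 92.5% and 107.8%, and 37C replicate 3 is at 90.7% for the mitosis genes.

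The other genes of the pathway were listed by knowledge of the pathway. Of 36 other replication genes, all tested, 0 passed (against 1.09% of all genes tested) and the median log2 change was -0.02. At an unadjusted edgeR p under 0.05, 2 were higher (against 7.58% of all genes tested) and 1 lower (against 6.12%). ASF1A, a histone chaperone, had 20.4, 18.5 and 20.05 CPM at 41C and 24.4, 22.0 and 22.5 CPM at 37C (log2 change -0.22 ± 0.08, edgeR adjusted p = 0.245). POLE3, a small polymerase epsilon subunit, had 268, 271 and 282 CPM at 41C and 250.3, 239 and 264 CPM at 37C (log2 change 0.12 ± 0.05, edgeR adjusted p = 0.246). Of 26 other G1/S control genes 25 were tested, 0 passed and the median was 0.01. At an unadjusted edgeR p under 0.05, 0 were higher and 1 lower, beside the same shares of all genes tested. CKS1B, a CDK-binding subunit, had 134, 136 and 142 CPM at 41C and 146, 148 and 161 CPM at 37C (log2 change -0.14 ± 0.05, edgeR adjusted p = 0.222). CDK6, a partner of the D cyclins, had 137, 131 and 123 CPM at 41C and 128, 112 and 93.4 CPM at 37C (log2 change 0.23 ± 0.11, edgeR adjusted p = 0.399). Again 37C replicate 3 was the lowest library. The CDK inhibitors CDKN1A and CDKN1B had log2 changes of 0.09 ± 0.06 and -0.03 ± 0.06; both were chosen after their values were seen. DESeq2 and limma-voom also called 0 genes of these 2 lists.

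Genes of the next phase of the cycle are set beside them. Of 20 mitosis genes, 2 fell, against 0.265% of all genes tested, and 0 rose, against 0.821%. Of the 20, 19 had a negative log2 change and the median was -0.12. CCNB1, the mitotic cyclin B1, fell to 238, 228 and 254 CPM at 41C, against 277, 289.5 and 282 CPM at 37C (log2 change -0.24 ± 0.05, edgeR adjusted p = 0.0212). CDK1, its kinase, fell to 94.9, 94.7 and 88.7 CPM at 41C, against 124, 118 and 102 CPM at 37C (log2 change -0.31 ± 0.07, edgeR adjusted p = 0.0384). The medians of the 2 lists, 0.01 for the replication genes and -0.12 for the mitosis genes, are given as a description and the difference between them was not tested. The mitosis genes summed to 4160, 4182 and 4419 CPM at 41C and 4821, 4760 and 4149 CPM at 37C, so 37C replicate 3 lay with the 41C libraries and the sums overlap. Of the 6 fits that left out 1 library, those lacking 41C replicate 1, 41C replicate 2 or 37C replicate 2 called 0 mitosis genes. The fit lacking 41C replicate 3 called 1, the fit lacking 37C replicate 1 called 2, and the fit lacking 37C replicate 3 called 9. Over all genes this last fit called 322 lower, against 32 with all 6 libraries. The gene length correction left 1 call, and limma on FPKM left 0. Over the same 6 fits the median of the mitosis genes ran from -0.17 to -0.10.

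**Figure D5:**
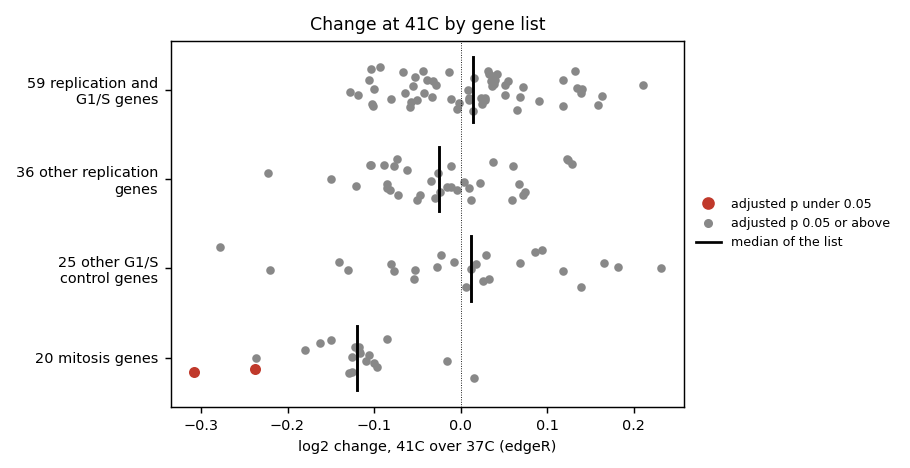
Log2 change at 41C over 37C (horizontal axis, edgeR) of every tested gene in 4 lists, with the median of each list as a black bar and genes past an adjusted p of 0.05 in red. The 59 replication and G1/S genes spread around 0, and the 20 mitosis genes lie mostly below 0 with 2 past the threshold.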

How the data were processed

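Per the labels' protocols, RNA from a mirVana kit went into TruSeq Stranded mRNA libraries. The submitters' processing notes name Trimmomatic 0.36, HISAT2 and GRCh38.p13. The sources used here give neither the HISAT2 version nor the counting program with its annotation and strandedness. The authors deposited whole-number counts per gene symbol, not normalized. They also deposited FPKM. Within 0.01%, 100% of nonzero FPKM values follow from the counts, a gene length and the library total, so FPKM adds no independent measurement.

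Counts were filtered with filterByExpr, scaled with TMM factors (0.986 to 1.01) and compared by the robust two-sided quasi-likelihood test of edgeR 4.0.16 in R 4.3.3. P-values were adjusted by Benjamini-Hochberg over the 12056 genes tested, at 0.05. CPM are scaled by the TMM factors; log2 changes are given ± SE, with 95% intervals from the same fit. With 3 libraries against 3 an exact two-sided permutation test of 1 gene cannot go below p = 0.1. The procedure was tested on simulated data.

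Members, roles, lists and named genes were chosen with earlier results of these data known. Values are given in every library for members past the threshold (none), the 2 smallest p-values and the highest FPKM of each role, the highest and lowest log2 change, 25 members fixed by name, and in each other list those past the threshold and the 2 smallest p-values; other members described were chosen after their values were seen. Alternatives were DESeq2 1.42.0, limma-voom (limma 3.58.1), other scaling factors and filters, a replicate block, a gene length correction (spline with 4 degrees of freedom), limma on log2(FPKM + 1) and log2(FPKM + 0.1), and each library left out. Of the members, 8 have pseudogenes named after them in GENCODE 29 (DBF4, PCNA, RFC3, RFC5, FEN1, RPA2, TYMS and RRM2), so their values are less certain, since the treatment of multiply mapping reads is unstated. Symbols of the study were matched by name, and the deposited tables carry no positions. Opposite-strand overlaps are described above where the partner has a row in the count table and shares over 10% of the exon bases. MCM2 (22.7%), GINS4 (21.2%), CDK2 (14.5%) and GINS3 (10.9%) share exon bases with an opposite-strand gene that has no row there. POLA2 (35.1%), RRM2 (20.2%) and PRIM1 (14.9%) share exon bases with a same-strand gene that has no row there. Part of their reads may likewise not be their own.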

Additional observations from a re-analysis of the deposited data

How the results depend on the processing

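The median log2 change of the 59 genes, 0.01, ran from -0.0055 to 0.03 over the 17 alternatives and was negative with upper-quartile scaling, with limma on FPKM at either pseudocount, and when 41C replicate 3 or either of 37C replicates 1 and 2 was left out. The count of 0 members past the threshold became 1 with DESeq2, 1 without a filter on low counts, 3 with the replicate block and 2 with the replicate block and the gene length correction; over the 6 fits that left out 1 library it ran from 0 to 5, and all of these calls were higher at 41C. The 5, without 37C replicate 3, were CCND1, MCM2, MCM3, MCM5 and DNMT1. Over all genes that fit called 483 higher and 322 lower. With the replicate block 297 were higher and 141 lower, and with DESeq2 185 were higher and 68 lower. Each setting that called a member also called more genes over all than the 131 above, so these member calls are no result about these genes. Calls over all genes were 131, against 253 with DESeq2, 284 without a filter, 438 with the replicate block, 247 with the block and the length correction, 11 with log2(FPKM + 1) and 40 with log2(FPKM + 0.1), and they ran from 5 (without 41C replicate 2) to 805 (without 37C replicate 3) over the fits that left out 1 library. The other pathway genes had 0 calls, against 1 with the replicate block, 2 with the block and the length correction, and 0 to 3 over the fits that left out 1 library. The labels do not say whether same-numbered libraries of the groups were handled together. Their deviations correlated at 0.077, -0.021 and 0.073 for replicates 1, 2 and 3, and those of unlike numbers at -0.134 to 0.065. Whether the libraries are paired was not tested, so the block is given as an alternative only. Of the 59 log2 changes, 31 kept their sign in all 17 alternatives. Over all genes, calls higher at 41C were 75.6% of calls, and 51.8% with upper-quartile scaling. That scaling moved the median of all genes to -0.02. CCNE1 and CCNE2 had the lowest counts and the widest intervals of the 59 genes. The cause of the shifts with 37C replicate 3 was not tested.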
